A study of Danio rerio with 12 samples.

Results

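Expression was compared between all zebrafish embryos exposed to testosterone, alone or with a second compound, and embryos given the solvent. The 9 exposed libraries were those of embryos kept in 30 µM testosterone, in 30 µM testosterone with 5 µM calindol, or in 30 µM testosterone with EGCG at 100 µM (the green tea polyphenol epigallocatechin gallate), with 3 libraries per exposure. The remaining 3 of the 12 libraries of the series came from embryos in 0.1% dimethyl sulfoxide (DMSO). All embryos were wild type of the AB strain, were treated from 2 to 4 h after fertilization, and were taken whole at an age of 3 days. Each group had a library from clutches 1, 2 and 4, and the number of embryos per library is not given in the sources used here. The submitters describe both added compounds as antagonists of the membrane receptor GPRC6A, EGCG a strong one and calindol a weak one. No group received calindol or EGCG without testosterone, so what the compounds do alone cannot be told apart from what they do to the testosterone response.

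Testosterone is an androgen that binds the nuclear androgen receptor, and aromatase converts it to the estrogen estradiol. The brain aromatase of fish is made by radial glia and is itself induced by estrogens, which makes its gene a common reporter of estrogen exposure in zebrafish embryos. Steroids are inactivated mainly in the liver and intestine by hydroxylation and by coupling to sulfate or glucuronic acid, and the liver, intestine and pancreas of the zebrafish become functional around the end of the exposure period.

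The question asked of the data was which genes responded in the same way whenever testosterone was present. The response common to the 3 exposures was defined as the genes that met 2 criteria. First, the mean of the 3 exposures, each weighted equally, had to differ from DMSO at an adjusted p under 0.05 in edgeR's quasi-likelihood test. Second, every one of the 9 exposed libraries had to lie above, or every one below, all 3 DMSO libraries in CPM (counts scaled to the size of the library). The second criterion uses the compared values themselves, so the level differences of the genes it picked are a description. A further F test asked whether the 3 exposures differed from each other. It compared the exposed groups only, although the DMSO libraries entered the scaling and the estimate of spread.

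Library totals ran from 8181295 to 22510680 counts, and libraries of a group correlated at Pearson r 0.9696 to 0.9889 across genes. Of 32520 genes in the table, 20237 had enough counts for the test. The table holds few or no counts for some genes that are abundant at this age. The highest count in any library was 4 for the cartilage collagen gene col2a1a and 2 for the muscle creatine kinase gene ckma, and fabp2, lyz, gata1a and epcam had none. In all, 2598 of 25432 protein-coding genes had no count, and a gene at 0 here is not shown to be silent. Because whole embryos were sequenced, fewer cells of a type and less RNA per cell cannot be told apart in any of the results.

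Of the genes tested, 1958 (9.68%) differed between the mean exposure and DMSO, 812 higher (4.01%) and 1146 lower (5.66%). All 9 exposed libraries lay beyond all 3 DMSO libraries for 1127 genes (5.57%), 512 above (2.53%) and 615 below (3.04%). Both criteria were met by 911 genes (4.5%), 397 higher (1.96%) and 514 lower (2.54%). Another 216 genes showed no overlap but did not pass the test, and 1047 passed the test but overlapped, 483 of them with 8 of the 9 exposed libraries beyond DMSO. Closest to the limit of the second criterion were dhodh (ENSDARG00000051889), inside it, and eif3f (ENSDARG00000077533), outside it. For dhodh the highest exposed library and the lowest DMSO library both rounded to 14.0 CPM, and for eif3f the lowest exposed library and the highest DMSO library both rounded to 191 CPM. Neither passed the test with clutch as a block. The number of genes past the test rested on the DMSO group, since it was 878 without DMSO library 1, 981 without library 2 and 952 without library 4. It was 346 when the 9 exposed libraries were fitted as 1 group, so that differences between exposures counted as spread. Without DMSO library 2 the genes with no overlap numbered 1718.

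Within the common response the decreases were larger than the increases. The median absolute log2 fold change was 0.53 among the higher and 0.75 among the lower genes, against 0.16 over all genes tested. At least a doubling (a log2 fold change of 1) was reached by 69 higher genes, and at least the corresponding decrease by 182 lower genes. A log2 fold change of 2 or more was reached by 11 higher and 57 lower genes, and one of 3 or more by 4 higher and 18 lower genes. For 107 genes, 24 higher and 83 lower, even the nearest exposed and DMSO libraries were at least 1.5-fold apart. The heat map of all 911 genes shows this asymmetry of size in each of the 9 exposed libraries. The direction of each gene in each exposed library was fixed by the second criterion. Genes of the common response had somewhat more counts than usual, with a median DMSO level of 24.9 CPM for the higher and 20.3 CPM for the lower genes against 13.4 CPM over all genes tested. Protein-coding genes made up 96.9% of them and 95.2% of all genes tested.

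**Figure D1:**
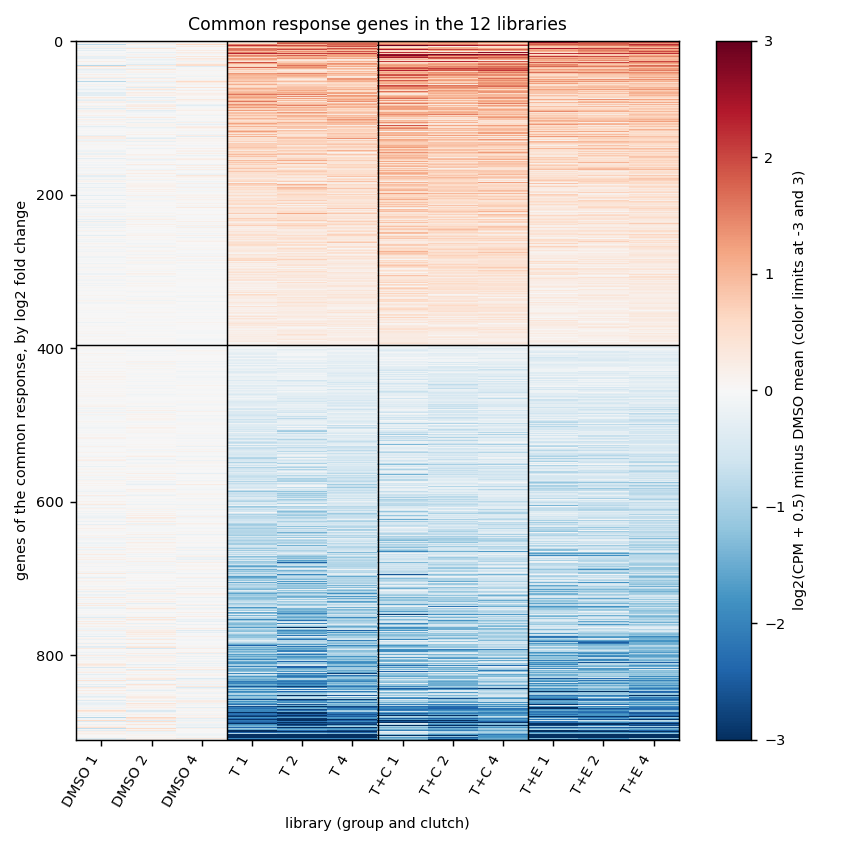
Levels of the 911 genes of the common response in the 12 libraries, as log2(CPM + 0.5) minus the DMSO mean. Rows are genes ordered by log2 fold change, columns are libraries named by group (T testosterone, T+C with calindol, T+E with EGCG) and clutch, and the horizontal line parts the 397 higher from the 514 lower genes. By the rule that picked the genes, every exposed library is red above the line and blue below it. The blue block holds the deeper colors.

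Brain aromatase had one of the largest increases of the common response. The gene cyp19a1b (ENSDARG00000098360) had 2.91, 2.12 and 2.71 CPM in the DMSO libraries and from 34.3 to 60.1 CPM (median 51.6) in the exposed ones. No exposed library came near the DMSO range, and the group means of 44.4 ± 12.5 CPM with testosterone, 49.4 ± 12.01 with calindol added and 48.9 ± 5.20 with EGCG added lay within each other's spread (SD, n = 3 each). The log2 fold change of the mean exposure was 4.197 (SE 0.22, edgeR adjusted p = 6.22e-08). A difference among the exposures was not detected (F test in edgeR, adjusted p = 0.77). The 95% interval of the log2 difference was −0.27 to 0.53 for EGCG against testosterone alone and −0.25 to 0.54 for calindol against testosterone alone. Among the 8 tested genes of the estrogen list, which holds estrogen receptors and their targets, cyp19a1b was the only one past the threshold. The vitellogenin genes vtg1 and vtg3, which encode yolk precursors, did not pass. The vtg1 libraries had 0.106 to 0.619 CPM in DMSO and 0.593 to 16.2 CPM after exposure, and the groups overlapped.

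Other genes with large increases had varied roles. The neuropeptide gene npvf (ENSDARG00000036227), which encodes the precursor of gonadotropin-inhibitory hormone, had 1.43, 2.60 and 1.86 CPM in DMSO and 4.92 to 12.1 CPM (median 6.69) in exposed libraries. Its level was highest with EGCG, at 10.4 ± 1.56 CPM, and the exposures differed (adjusted p = 0.00503). The gene nfybb (ENSDARG00000045611), for a subunit of the transcription factor NF-Y, had 0.741, 1.27 and 2.38 CPM in DMSO and 3.63 to 10.6 CPM (median 7.34) after exposure, with an adjusted p of 0.899 among the exposures. For the coagulation factor XIII gene f13a1a.1 (ENSDARG00000045453), the DMSO libraries held 2, 1 and 0 counts. The exposed libraries held 16 to 275 counts, or 1.27 to 14.9 CPM, and since the DMSO level rests on 3 counts in all no fold is given.

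**Figure D2:**
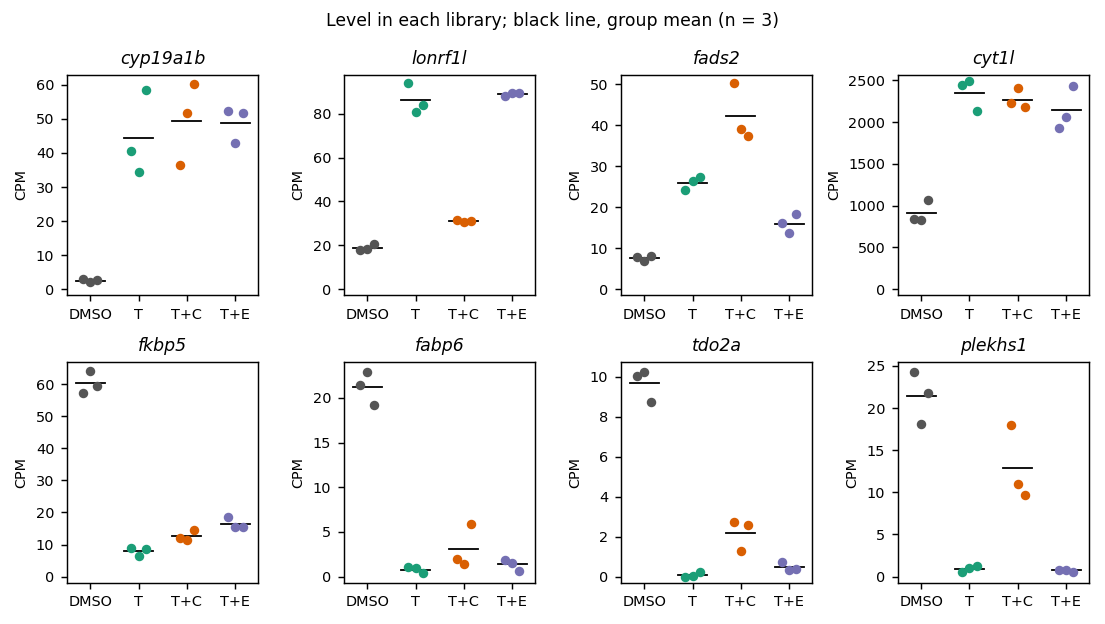
Level of 8 genes of the common response in each library, in CPM on a linear axis from 0, with the group mean (n = 3) as a black line. Points are libraries of DMSO, testosterone (T), testosterone with calindol (T+C) and testosterone with EGCG (T+E). For cyp19a1b and cyt1l the 3 exposures sit side by side, and for lonrf1l and plekhs1 the calindol libraries sit closest to DMSO.

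Among the gene lists, that of cholesterol synthesis held the largest number of higher genes. Over all genes tested, 4.01% were higher, 5.66% were lower and 4.5% were in the common response. These shares are the background for the counts of the lists. The lists were themselves chosen with earlier results of these data known. A share above the background therefore describes the members of a list and is not independent evidence about its pathway or tissue. Of 27 tested genes for cholesterol synthesis and LDL uptake, 20 were higher, none was lower and 7 did not pass, and 19 belonged to the common response. Their median log2 fold change was 0.71, against −0.01 over all genes tested, and their summed level was 686 to 706 CPM in the DMSO libraries and 1007 to 1634 CPM in the exposed ones. The higher genes covered the pathway from its start to its end. They included hmgcs1 and hmgcra (the rate-limiting reductase), mvk, mvda, idi1 and fdps of the mevalonate steps, fdft1, sqlea and lss around squalene, and cyp51, tm7sf2, msmo1, nsdhl, hsd17b7 and ebp of the sterol steps. The LDL receptor genes ldlra and ldlrb and the gene of their transcriptional regulator, srebf2, were higher as well. The gene acat2 passed the test but overlapped DMSO. Those that did not pass included hmgcrb, pmvk, sqleb, sc5d, dhcr7 and stard4, with log2 fold changes of −0.03 to 0.34.

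Squalene epoxidase had the largest log2 fold change of the list, followed by the methylsterol oxidase gene msmo1 (1.84) and the lanosterol demethylase gene cyp51. The epoxidase gene sqlea (ENSDARG00000079946) had 6.46, 6.15 and 5.90 CPM in DMSO and 17.1 to 58.2 CPM (median 25.5) after exposure, a log2 fold change of 2.17 (SE 0.20, edgeR adjusted p = 6.21e-06). The lowest exposed library was 2.64 times the highest DMSO library. For the demethylase gene cyp51 (ENSDARG00000042641), DMSO libraries had 26.5, 23.8 and 25.4 CPM and exposed libraries 43.8 to 172 CPM (median 69.6), a log2 fold change of 1.60 (SE 0.18, edgeR adjusted p = 4.62e-05). The reductase gene hmgcra (ENSDARG00000052734) went from 9.39 ± 2.63 CPM to means of 16.6 ± 1.34, 22.9 ± 3.57 and 18.4 ± 0.982 CPM with testosterone, calindol and EGCG (SD, n = 3).

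The size of this increase depended on the exposure. Of the 19 common genes, 14 differed among the exposures, and the medians of the log2 fold change over all 27 genes were 0.66 with testosterone, 0.97 with calindol and 0.52 with EGCG. The gene cyp51 was higher with calindol than with testosterone alone by a log2 difference of 0.76 (95% interval 0.35 to 1.18) and lower with EGCG than with testosterone alone by −0.53 (−0.95 to −0.10). The order was not the same for every gene. For srebf2 (ENSDARG00000063438), DMSO libraries had 113, 102 and 127 CPM, and the highest exposed values were those of EGCG, at 224 ± 6.56 CPM, above 174 ± 10.2 with testosterone and 163 ± 8.87 with calindol (adjusted p = 0.000691 among exposures). With the 9 exposed libraries as 1 group, 13 of the 27 genes remained past the threshold. The genes that did not pass in that fit included idi1, fdps, ebp, hsd17b7, nsdhl and ldlra, with adjusted p from 0.0528 to 0.101.

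**Figure D3:**
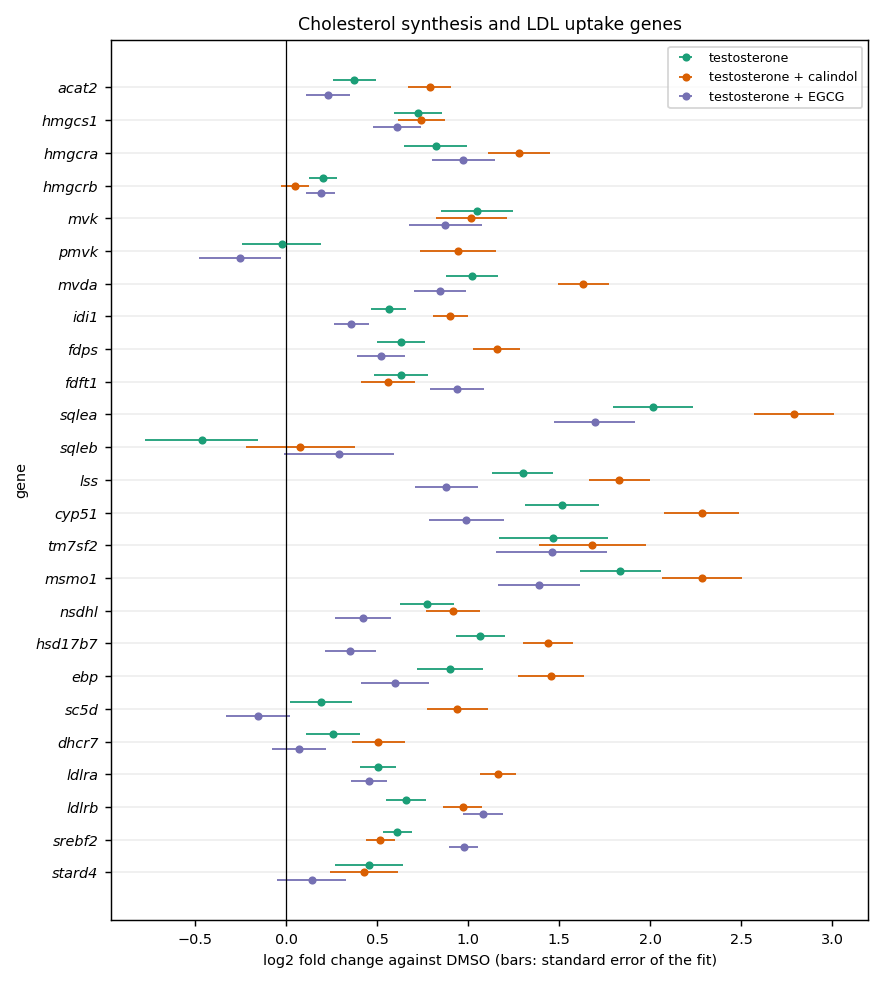
Log2 fold change against DMSO of 25 genes for cholesterol synthesis and LDL uptake, in pathway order from top to bottom, for each exposure (points). Bars are standard errors back-calculated from the test statistic. Most points lie right of 0, and calindol gives the largest value for genes such as sqlea and cyp51.

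The desaturase fads2 (ENSDARG00000019532), which makes polyunsaturated fatty acids, rose together with these genes. Its DMSO libraries had 7.94, 6.79 and 8.19 CPM, and the exposed ones 13.6 to 50.2 CPM (median 26.5), a log2 fold change of 1.77 (SE 0.13, edgeR adjusted p = 7.73e-07). The exposures were separated, at 25.98 ± 1.65 CPM with testosterone, 42.2 ± 6.99 with calindol and 16.0 ± 2.33 with EGCG (adjusted p = 8.26e-06). In a list of 9 tested genes of fatty acid desaturation, chosen after their values were seen, 3 were higher and none lower. These were fads2, the regulator srebf1 and the elongase elovl2, and elovl2 overlapped DMSO. The call of srebf1 was lost when the exposed libraries were taken as 1 group (adjusted p = 0.083).

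Genes of bile acid handling moved in both directions. Of 11 tested genes of intestinal bile acid and lipid uptake, 6 were lower and 3 higher, and 6 and 2 of them belonged to the common response. The 6 lower genes include vil1 and cdx1b, which are described below with other enterocyte genes. The summed level of the list overlapped, at 446.8 to 498.3 CPM in DMSO libraries and 380 to 542 CPM in exposed ones. The share past the test was 81.8%, against 9.68% over all genes tested. The gene fabp6 (ENSDARG00000044566), for the bile acid binding protein of enterocytes, had 21.5, 22.9 and 19.2 CPM in DMSO and 0.349 to 5.90 CPM (median 1.37) after exposure, a log2 fold change of −3.90 (SE 0.31, edgeR adjusted p = 2.4e-06). Its highest exposed library, of the calindol group, was still 3.25-fold below the lowest DMSO library. The gene cyp7a1 (ENSDARG00000069018), for the rate-limiting enzyme of bile acid synthesis from cholesterol, had 21.0, 25.0 and 26.2 CPM in DMSO and 0.867 to 6.88 CPM (median 4.35) in exposed libraries. Its log2 fold change was −2.62 (SE 0.34, adjusted p = 0.000163), and a difference among exposures was not detected (adjusted p = 0.278).

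The nuclear receptor genes that govern these steps changed too. The bile acid receptor gene nr1h4 (ENSDARG00000057741) was lower, from 5.98 ± 1.38 CPM in DMSO to 1.85 ± 0.810, 2.98 ± 1.04 and 2.93 ± 0.247 CPM with testosterone, calindol and EGCG (SD, n = 3). Its target in mammals, the repressor gene nr0b2a (ENSDARG00000044685), was higher, with 30.1, 22.9 and 26.1 CPM in DMSO and 35.7 to 156 CPM (median 52.5) after exposure. The exporter gene abcb11b (ENSDARG00000070078), a bile salt export pump gene, had 20.2, 19.8 and 18.2 CPM in DMSO and 23.0 to 51.8 CPM (median 44.8) after exposure, a log2 fold change of 1.096 (SE 0.17, edgeR adjusted p = 0.000946). For nr0b2a the exposures differed (adjusted p = 0.00395), with 102 ± 47.8 CPM under calindol, and its call was lost with the exposed libraries as 1 group (adjusted p = 0.135). The gene slc51a was higher on average but overlapped DMSO. The call of the intestinal bile acid transporter gene slc10a2 was lost whichever DMSO library was left out.

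Several genes of the absorptive face of the intestine were lower after exposure. In a list of 25 tested enterocyte genes, which was chosen after their values were seen and shares fabp6 and cel.2 with other lists, 21 were lower, none was higher, and 19 were in the common response. Their median log2 fold change was −1.99, and their summed level was 455 to 475 CPM in DMSO libraries and 142 to 245 CPM in exposed ones. Because the list was chosen with its values known, these figures describe its members and do not measure intestinal genes at large. The villin gene vil1 (ENSDARG00000040466), for an actin bundler of the brush border, had 125, 133 and 127 CPM in DMSO and 30.6 to 73.4 CPM (median 49.3) after exposure, a log2 fold change of −1.34 (SE 0.15, edgeR adjusted p = 4.91e-05). The peptide transporter gene slc15a1b (ENSDARG00000044528) had 10.6, 12.4 and 12.4 CPM in DMSO and 0.867 to 2.84 CPM (median 2.23) after exposure, a log2 fold change of −2.52 (SE 0.21, edgeR adjusted p = 3.01e-06). The exposures were not separated for vil1 (adjusted p = 0.123) or slc15a1b (adjusted p = 0.441).

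Other apical enterocyte genes were lower as well. The neighbouring chitinase genes chia.1 and chia.2 had log2 fold changes of −2.51 and −2.82, the alkaline phosphatase gene alpi.2 one of −3.08, and the endocytic receptor gene lrp2b one of −2.56. The intestinal transcription factor gene cdx1b (ENSDARG00000116139) went from 38.3 ± 1.14 CPM to 19.6 ± 2.86, 21.97 ± 4.11 and 22.3 ± 4.41 CPM with testosterone, calindol and EGCG (SD, n = 3). The genes alpi.1, slc6a19a.1, anpepa and dab2 of this list did not pass, with log2 fold changes of 0.00, −0.41, −0.63 and −0.32. With the exposed libraries as 1 group, slc5a1 (adjusted p = 0.168) and anpepb (adjusted p = 0.0513) lost their calls. Without DMSO library 1 or 2 the receptor gene cubn lost its call. How reads shared by near-identical copies such as chia.1, chia.2 and chia.3 were counted is not given in the sources used here, so their separate values are uncertain.

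**Figure D4:**
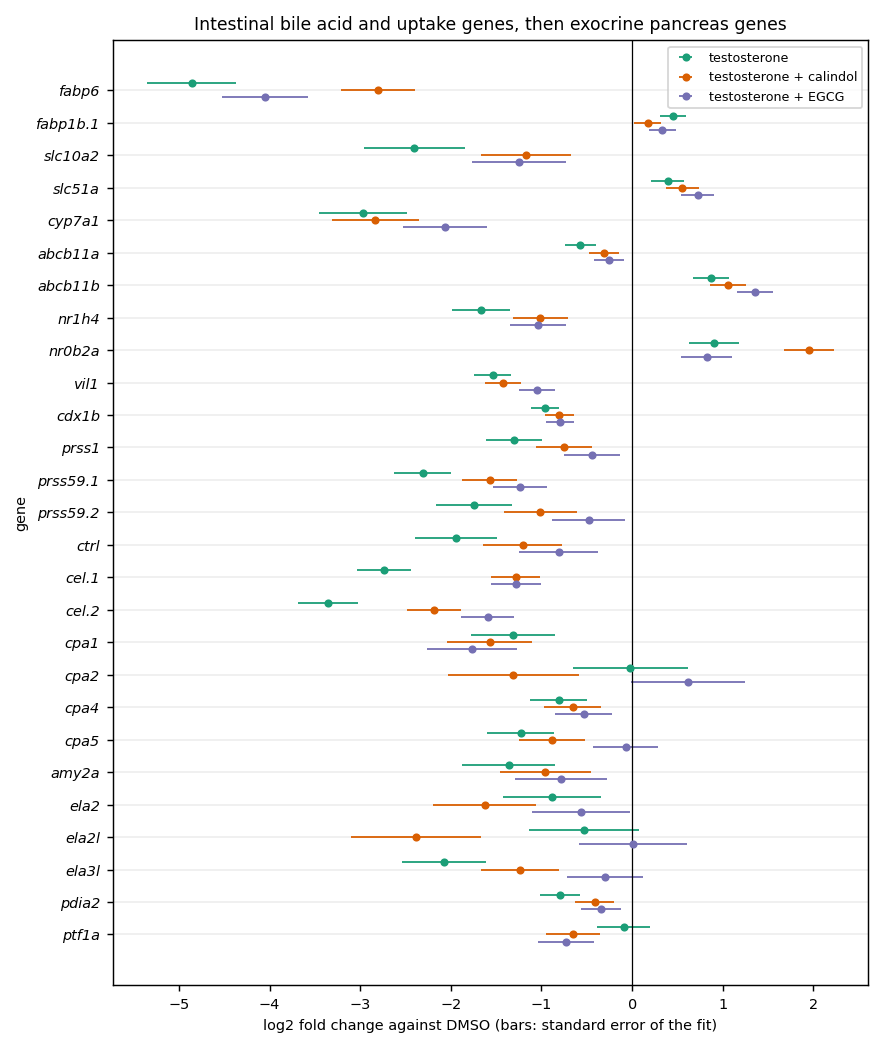
Log2 fold change against DMSO of the 11 tested intestinal bile acid and uptake genes, then of the 16 tested exocrine pancreas genes, for each exposure (points). Bars are standard errors back-calculated from the test statistic. The values of fabp6 and cyp7a1 lie far left of 0 in all exposures, abcb11b and nr0b2a lie right of it, and among pancreas genes the EGCG points tend to lie nearest to 0.

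Digestive enzymes of the exocrine pancreas also lay lower. Of 16 tested genes, 8 were lower and none higher, and 7 were in the common response. The share past the test was 50%, against 9.68% over all genes tested. The summed level of the list was 347 to 425 CPM in DMSO libraries and 62.6 to 308 CPM in exposed libraries. The trypsin-like protease gene prss59.1 (ENSDARG00000079274) had 32.2, 37.0 and 38.1 CPM in DMSO and 3.58 to 17.9 CPM (median 11.6) after exposure. The lipase gene cel.2 (ENSDARG00000029822) had 6.83, 8.86 and 11.99 CPM in DMSO and 0.542 to 3.32 CPM (median 2.18) after exposure. Leaving out DMSO library 1, 2 or 4 reduced the 8 lower genes to 4, 3 or 3, and they were 5 with DESeq2's test, 5 without calindol library 2 or without EGCG library 1, 2 or 4, and 4 with the exposed libraries as 1 group. The pancreatic transcription factor gene ptf1a had a log2 fold change of −0.49 and did not pass. Among 22 tested genes of proteins secreted by the liver, 4 were lower and 1 was higher. The share past the test was 22.7%, against 9.68% over all genes tested. The common response held 4.55% of this list, close to the 4.5% over all genes tested, and the exposures differed for 17 of the 22 genes. The summed level of the liver list was 4459 to 4653 CPM in DMSO, 3581 to 4259 with testosterone alone and 3016 to 3175 with EGCG. With calindol it was 3863 to 5249 CPM, which overlapped DMSO. The part of changes in the number of gut, liver or pancreas cells in these results was not tested.

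Transcripts for several steps of tryptophan breakdown were lower. Of 14 tested genes of tryptophan breakdown and serotonin synthesis together, 6 were lower and none was higher, and 5 were in the common response. The share past the test was 42.9%, against 9.68% over all genes tested. The liver enzyme gene tdo2a (ENSDARG00000071429), for the dioxygenase that opens the tryptophan ring, had 10.1, 10.2 and 8.76 CPM in DMSO. The exposed libraries had 0 to 2.71 CPM (median 0.385), a log2 fold change of −4.33 (SE 0.28, edgeR adjusted p = 2.77e-07). The calindol libraries held the most, at 2.19 ± 0.800 CPM, against 0.0909 ± 0.114 with testosterone alone and 0.472 ± 0.210 with EGCG (adjusted p = 4.22e-05 among exposures). A second dioxygenase gene of the same step, ido1 (ENSDARG00000033594), had 6.77, 7.21 and 5.00 CPM in DMSO and 0.356 to 2.703 CPM (median 1.11) after exposure, with no difference detected among exposures (adjusted p = 0.556). The downstream genes haao and acmsd had log2 fold changes of −0.75 and −0.81. The serotonin synthesis gene tph1b belonged to the common response but lost its call whichever DMSO library was left out.

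Genes that respond to steroids in other settings were lower in part. The co-chaperone gene fkbp5 (ENSDARG00000028396), which glucocorticoids and androgens induce in mammals, had the smallest adjusted p among all lower genes (3.39e-09). It had 57.3, 64.1 and 59.5 CPM in DMSO and 6.56 to 18.6 CPM (median 11.99) after exposure, a log2 fold change of −2.34 (SE 0.09). The fall was deepest with testosterone alone, at 8.07 ± 1.32 CPM, then 12.7 ± 1.68 with calindol and 16.5 ± 1.81 with EGCG (adjusted p = 0.000141). EGCG exceeded testosterone alone by a log2 difference of 1.03 (95% interval 0.73 to 1.32). Of 14 tested genes of the glucocorticoid list, 7 were lower and 1 higher, and 3 were in the common response. The share past the test was 57.1%, against 9.68% over all genes tested. The exposures differed for 11 of the 14, and the list's median log2 fold change was −0.49 with testosterone, −0.28 with calindol and 0.09 with EGCG. The summed level of the list was 755.6 to 797.6 CPM in DMSO libraries and 571.5 to 599.8 with testosterone alone. It was 783 to 875.2 CPM with calindol and 753.3 to 763.8 with EGCG. The phosphatase gene dusp1 (ENSDARG00000100515) had 63.8, 73.8 and 66.4 CPM in DMSO and 39.7 to 51.3 CPM (median 46.2) after exposure. The count of 7 was 4 without DMSO library 2, 3 without DMSO library 4, 4 without the testosterone group and 2 with the exposed libraries as 1 group, and tsc22d3 lost its call whichever DMSO library was left out. The 1 higher gene of the list, zbtb16b, did not pass with clutch as a block.

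Sulfotransferases that inactivate steroids split. The gene sult2st3 (ENSDARG00000028367) was higher, with 7.51, 7.06 and 9.14 CPM in DMSO and 12.7 to 20.2 CPM (median 15.3) after exposure. Its relative sult2st2 (ENSDARG00000103785) was lower, with 33.6, 35.7 and 35.2 CPM in DMSO and 14.0 to 20.0 CPM (median 16.6) after exposure. Neither differed detectably among the exposures (adjusted p = 0.363 and 0.29). In the androgen response list of 5 tested genes, sult2st3 was the 1 higher gene and fkbp5 the 1 lower gene, both in the common response. The other 3 (ar, lipca and igf1) did not pass. The share past the test was 40% of these few genes, against 9.68% over all genes tested. The gene star (ENSDARG00000006137), for the protein that brings cholesterol to the steroid-making enzymes, was lower, from 7.66 ± 0.539 CPM to 3.75 ± 0.963, 4.93 ± 0.498 and 4.14 ± 0.345 CPM with testosterone, calindol and EGCG (SD, n = 3). Over the 28 tested genes of steroid synthesis and inactivation, 3 were higher and 7 lower, 35.7% against 9.68% over all genes tested. The 7 lower genes became 2, 4 and 2 without DMSO libraries 1, 2 and 4. They were 4 without the EGCG group and 2 with the exposed libraries as 1 group. The androgen receptor gene ar had a log2 fold change of 0.15, the receptor gene gprc6a one of 0.73, and neither passed. Of the 14 tested receptor genes only pgrmc1 passed, at −0.22, and it did not belong to the common response. That share of 7.14% was below the 9.68% over all genes tested.

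Some pituitary hormone genes and genes of growth hormone signalling were higher. Of 5 tested pituitary hormone genes, 3 were higher (gh1, prl and smtlb) and none was lower, all 3 in the common response, while pomca (0.82) and cga (0.54) did not pass on the log2 scale of the mean exposure. The growth hormone gene gh1 (ENSDARG00000038185) had 3.49, 5.52 and 4.19 CPM in DMSO and 6.45 to 16.2 CPM (median 11.1) after exposure, a log2 fold change of 1.27 (SE 0.16, edgeR adjusted p = 0.000117). It was lowest among the exposures with testosterone alone, at 7.41 ± 0.844 CPM, and calindol exceeded it by a log2 difference of 0.97 (95% interval 0.60 to 1.35). The prolactin gene prl lost its call without DMSO library 1 (adjusted p = 0.117) and without DMSO library 2 (adjusted p = 0.07), and also without the EGCG group or with the exposed libraries as 1 group. The feedback inhibitor gene cish (ENSDARG00000060316), a target of growth hormone signalling, had 10.2, 12.5 and 11.6 CPM in DMSO and 15.4 to 37.5 CPM (median 30.3) after exposure. The inhibitor gene socs2 and the receptor gene ghrb were higher by log2 fold changes of 0.86 and 0.75. These last 3 genes come from a list of 11 chosen after their values were seen, of which 3 were higher, 1 (socs3a) was lower and 7 did not pass. The insulin-like growth factor gene igf1 did not pass (log2 fold change 0.13).

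Most of the epidermis genes that passed the test, keratins among them, were higher. Of 12 tested epidermis genes, 6 were higher and 2 lower, all 8 in the common response. The other 4 did not pass, and they were the keratin genes krt4, krt5 and krt17 and the transglutaminase gene tgm1. The share past the test was 66.7%, against 9.68% over all genes tested. The keratin gene cyt1l (ENSDARG00000036832) had 839, 828 and 1063 CPM in DMSO and 1927 to 2485 CPM (median 2223) after exposure, a log2 fold change of 1.31 (SE 0.09, edgeR adjusted p = 8.55e-07). Its 3 exposures overlapped each other (adjusted p = 0.554), with intervals of −0.36 to 0.09 for EGCG and −0.28 to 0.17 for calindol against testosterone alone. The adjacent keratin gene cyt1 (ENSDARG00000092947) had 1966, 1999 and 2178 CPM in DMSO and 2750 to 3948 CPM (median 3625) after exposure, and krt91 (ENSDARG00000036830) went from 1528 to 1607 CPM to 2309 to 3264 CPM. The tight junction gene cldn1 and the cornified envelope genes evpla and ppl were higher by log2 fold changes of 0.58, 0.56 and 0.26. Lower were krt94, by −0.63, and the transglutaminase gene tgm1l3, by −2.76. With the exposed libraries as 1 group, 3 of the 6 higher genes passed and cldn1, evpla and ppl did not (adjusted p = 0.0829, 0.145 and 0.243), and ppl also lost its call without DMSO library 4. The summed level of the list was 10920 to 12630 CPM in DMSO libraries and 11710 to 22430 CPM in exposed libraries.

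**Figure D5:**
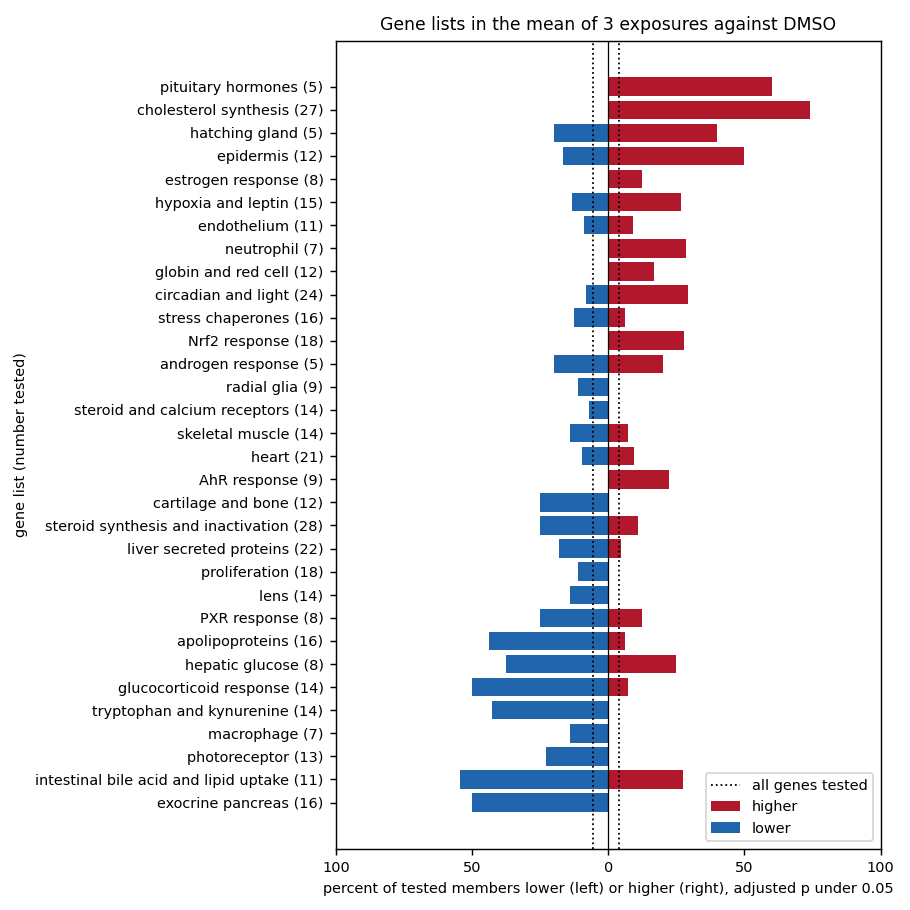
Percent of the tested members of each of 32 gene lists that were lower (left, blue) or higher (right, red) in the mean of the 3 exposures against DMSO, with the number tested in brackets and lists ordered by median log2 fold change. Dotted lines mark the shares over all genes tested, 5.66% lower and 4.01% higher. Cholesterol synthesis has 20 of 27 members higher, and intestinal bile acid and lipid uptake 6 of 11, exocrine pancreas 8 of 16 and glucocorticoid response 7 of 14 lower.

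Within the common response, 395 of the 911 genes (43.4%) differed among the exposures, close to the 42.3% over all genes tested. Among 190 such higher genes, the level farthest from DMSO was that of calindol for 141, of EGCG for 27 and of testosterone alone for 22. Among 205 such lower genes it was that of EGCG for 98, of testosterone alone for 56 and of calindol for 51. The level nearest to DMSO was that of EGCG for 108 of the higher genes and that of calindol for 107 of the lower genes. The other 516 genes did not pass this test, which does not show that their exposures were alike. At an adjusted p under 0.05 in the separate comparisons with DMSO, which share the DMSO libraries, 588 of the 911 genes passed with testosterone alone, 743 with calindol and 639 with EGCG. The 911 genes were picked on the mean of these same comparisons and on not overlapping the same DMSO libraries. High counts were therefore largely built in, and with no share over all genes tested beside them they are a description only.

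The genes with the smallest p among the exposures were lonrf1l, plekhs1, mpeg1.2 and atp1a3b. The gene lonrf1l (ENSDARG00000078567), of a family with LON and RING finger domains, had 17.8, 18.3 and 20.7 CPM in DMSO, 86.4 ± 6.85 with testosterone and 89.0 ± 0.943 with EGCG, but 31.1 ± 0.422 with calindol (adjusted p = 7.54e-08). With calindol it differed from testosterone alone by −1.47 on the log2 scale (95% interval −1.64 to −1.30), and the interval for EGCG was −0.12 to 0.21. The gene plekhs1 (ENSDARG00000079227) had 24.3, 18.1 and 21.8 CPM in DMSO, 0.948 ± 0.377 with testosterone, 0.755 ± 0.129 with EGCG and 12.9 ± 4.48 with calindol. Its highest calindol library, at 18.01 CPM, almost touched the lowest DMSO library.

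The perforin-like gene mpeg1.2 (ENSDARG00000043093), used as a marker of macrophages, followed the same order. Its DMSO libraries had 34.0, 33.6 and 36.8 CPM, and means were 7.46 ± 1.22 with testosterone, 4.73 ± 1.34 with EGCG and 25.8 ± 3.78 with calindol (adjusted p = 9.35e-07). It was the only one of 7 tested macrophage genes past the threshold for the mean exposure, but the exposures differed for 6 of the 7. The summed level of the list, mpeg1.2 included, was 82.1 to 90.1 CPM in DMSO libraries. It was 52.9 to 63.4 CPM with testosterone alone, 33.3 to 40.0 with EGCG and 73.7 to 102.5 with calindol, so only calindol overlapped DMSO. In the opposite order, atp1a3b (ENSDARG00000104139), for a sodium pump subunit of neurons, had 208, 215 and 221 CPM in DMSO, 148 ± 19.9 with testosterone, 191 ± 16.7 with EGCG and 66.8 ± 10.9 with calindol. With the exposed libraries as 1 group, plekhs1, mpeg1.2 and atp1a3b lost their calls (adjusted p = 0.306, 0.252 and 0.438).

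At the other end were genes for which a difference among the exposures was not detected. The glucuronosyltransferase gene ugt2a7 (ENSDARG00000093043, a symbol that the table gives to more than 1 identifier) had means of 12.3 ± 0.594, 12.7 ± 2.18 and 12.7 ± 0.924 CPM with testosterone, calindol and EGCG, against 21.1 ± 0.622 in DMSO (adjusted p = 0.957 among exposures). For the intestinal claudin gene cldn15la (ENSDARG00000016081) DMSO libraries had 38.5, 35.9 and 41.0 CPM and exposed libraries 21.6 to 29.99 CPM (median 24.3). Its exposures differed from testosterone alone by log2 differences within −0.27 to 0.30 (calindol) and −0.26 to 0.32 (EGCG) at 95% confidence. The clock repressor gene bhlhe41 (ENSDARG00000041691) had 1.53, 1.49 and 1.86 CPM in DMSO and 2.93 to 5.22 CPM (median 4.15) after exposure, with an adjusted p of 0.856 among exposures.

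By position, 763 of the 911 genes could be placed among their neighbours in the RefSeq gene order of assembly GRCz12tu, which is not the GRCz11 build of the counts and serves here for order only. Of these, 81 (10.6%) had a neighbour that was also in the common response in the same direction, which made 44 adjacent pairs, against 10 adjacent pairs of opposite direction. Neighbours were taken among the 15967 tested genes that could be placed (78.9%), so other genes can lie between the genes of a pair. A neighbour among the higher common genes was found for 10.8% of the 343 placed higher members and 4.05% of all other placed genes. For the lower genes the shares were 10.5% of 420 members and 4.99% of all other placed genes. These shares are a description with no test, and adjacent copies of a gene can share reads. Several same-direction pairs were related genes, such as chia.1 with chia.2, cel.1 with cel.2, cyt1 with cyt1l, ugt5b3 with ugt5b4, nefla with nefma and ttn.1 with ttn.2. Others were not, such as the pair of nfybb and amn1 or that of bhlhe41 and ctsd.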

How the data were processed

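RNA was sequenced from 12 whole-embryo libraries, made directionally from poly(A) RNA per the labels' protocols. The deposited values are read counts per gene. Reads were processed with Trim Galore 0.6.10, STAR 2.7.1a and featureCounts on build GRCz11, per the submitters' processing notes. Which gene annotation was used, and how strand and multiply matching reads were handled, is not given in the sources used here, and 577 gene symbols of the table belonged to more than 1 identifier.

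Groups came from the sample titles. Counts were fitted in edgeR 4.0.16 (R 4.3.3) with filterByExpr (minimum count 10), TMM scaling, a mean per group over all 12 libraries and no clutch term. The fit had 8 residual degrees of freedom. The contrast was the mean of the 3 exposure coefficients minus DMSO, two-sided, with Benjamini-Hochberg adjustment over 20237 genes. The F test among exposures used the same fit and adjustment. Standard errors (SE) of log2 fold changes were back-calculated, as the absolute log2 fold change divided by the square root of the test's F statistic. They are approximate, and least reliable where a difference is very small or counts are few. Intervals of differences rest on standard errors of this kind. CPM values are TMM-scaled and given as mean ± SD (n = 3). CPM levels are not adjusted for gene length, so they are compared within a gene only. The code was also run on simulated counts, with no clutch effect and with far fewer genes differing among exposures than in these data. That run therefore does not show how the method performs here.

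The labels give each group the same clutches, which pairs the libraries. After subtraction of group means, libraries of a clutch correlated at a mean r of 0.012 (−0.0864 to 0.103, 18 pairs), and libraries of other clutches at −0.00578 (36 pairs). An alternative fit added clutch as a blocking term. The series' design text calls the libraries of a group biological replicates, and they come from different clutches.

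The members, the 32 gene lists and the tests were chosen with earlier results of these data known, and 3 further lists were chosen after the values were seen. Genes were named when they belonged to the common response and were among the 12 largest changes per direction with a mean of at least 2 CPM in the higher group, the 4 smallest p per direction, the 4 smallest and 4 largest p among the exposures, the genes at the edge of the rule, or in a list. Other named genes are list members outside the common response, members of lists chosen after their values were seen, genes paired by position, or genes of gene families. Some results for single genes are not reported here. Alternatives were DESeq2 size factors and its test, no filter, the clutch block, the 9 exposed libraries as 1 group, a log2 fold change of at least 1, and leaving out each library or each exposure.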

Additional observations from a re-analysis of the deposited data

Results flagged for a closer look

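Each result here is a difference among the 3 exposures, from the F test described above, within the common response. Such differences were found for 395 of the 911 genes (43.4%), close to the 42.3% over all genes tested. No explanation was tested for any of them.

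Among the genes with the largest changes or smallest p, the adjusted p of the difference was 0.00112 for sqlea, 0.00503 for npvf, 0.00856 for msmo1, 8.26e-06 for fads2, 0.00074 for arf4b, 7.54e-08 for lonrf1l, 0.000347 for cyp51 and 0.0355 for sdr42e2 on the higher side. On the lower side it was 4.22e-05 for tdo2a, 0.0139 for fabp6, 3.15e-06 for urgcp, 7.54e-07 for plekhs1, 0.0361 for acot19, 0.0263 for alpi.2, 0.00012 for rhcga and 0.00979 for slc38a3a. It was 0.00328 for zanl, 0.0217 for tgm1l3, 0.00604 for scpp9, 0.000141 for fkbp5, 3.28e-06 for sult5a1, 9.35e-07 for mpeg1.2 and 1.68e-06 for atp1a3b.

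By list, common genes that differed among the exposures numbered 14 of 19 for cholesterol synthesis and 4 of 7 for exocrine pancreas. For epidermis they numbered 6, out of 6 higher and 2 lower common genes. They numbered 3 each for hypoxia and leptin, with 3 higher and 1 lower common genes, and for skeletal muscle, with 1 higher and 2 lower. The count was 2 each for glucocorticoid response, steroid synthesis and inactivation, Nrf2 response, bile acid and lipid uptake, apolipoproteins, tryptophan and kynurenine, and heart. The common genes behind it were 2 higher for Nrf2, 1 in each direction for apolipoproteins and heart, and 3 lower for glucocorticoid response. Tryptophan and kynurenine had 5 lower, steroid synthesis and inactivation 3 higher and 6 lower, and bile acid and lipid uptake 2 higher and 6 lower. The count was 1 each for androgen response, hepatic glucose, globin, circadian and light, pituitary hormones, macrophage, neutrophil, photoreceptor and endothelium. Since 43.4% of all common genes differed, counts this small do not set a list apart.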

How the results depend on the processing

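With the 9 exposed libraries as 1 group, 346 genes changed (132 higher, 214 lower) and 337 were common (126 higher, 211 lower). Without the testosterone group, genes with no overlap numbered 1821 (871 higher, 950 lower) and common higher genes 602. Without the calindol group, 2712 had no overlap (1057 higher, 1655 lower), 1894 were common (699 higher, 1195 lower), and 2993 differed among exposures. Without the EGCG group, 3034 changed (1299 higher, 1735 lower), 2455 had no overlap (1332 higher, 1123 lower), 1697 were common (879 higher, 818 lower), and 4719 differed among exposures. These fits ask fewer libraries to lie beyond DMSO. At a log2 fold change of at least 1, 379 changed (110 higher, 269 lower) and 251 were common (69 higher, 182 lower). With the nearest libraries at least 1.5-fold apart, 107 had no overlap (24 higher, 83 lower).

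With 1 library left out, changed genes ran from 878 (without DMSO library 1) to 2446 (without calindol library 1), 351 to 999 higher and 527 to 1447 lower. Genes with no overlap ran from 1193 to 1718 (without DMSO library 2), 557 to 850 of them higher and 636 to 891 lower. Common genes ran from 672 to 1185. With clutch as a replicate block, 1701 changed and 856 were common, and 1918 genes (944 higher, 974 lower) had every exposed library beyond the DMSO library of its own clutch. Among the 134 named genes followed through the alternatives, the block ended the calls of dhodh, eif3f, hsd11b1la, hspa5 and pde6c and no other. DESeq2's test called 2373 genes, its size factors in edgeR 1958 (875 higher, 1083 lower), and 2031 were called with no filter. Over 134 named genes and 20 alternatives, 2474 of 2679 results kept direction and threshold, 205 lost the threshold and 0 reversed. Nearly all of these genes were picked because every exposed library lay on the same side of DMSO. A reversal could therefore hardly occur, and its absence is no support for their direction. The cause of these shifts was otherwise not tested. Depth limits genes under a few CPM, where a handful of counts sets the DMSO level.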

Other observations

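Gene families were grouped by symbol after the values were seen. They share genes with the results above, such as sult2st2, sult2st3 and ugt2a7, and sult genes were also counted in the list of steroid synthesis and inactivation. Those described here were picked from 112 families with at least 15 tested members. The largest common share was that of the sulfotransferase (sult) genes, 31.2% of 16 tested, with 4 lower and 1 higher. The 4 were 3 without DMSO library 1 or 4 or without the EGCG group, and 2 with the exposed libraries as 1 group. They were 5 without DMSO library 2 and 6 without the testosterone or the calindol group. With DESeq2's test they were 3, of 12 tested. Over all genes tested, 5.66% were lower, 4.01% higher and 4.5% in the common response. Collagen genes were lower: of 49 tested, 27 were lower and none higher, and 9 were in the common response. The gene col9a1b (ENSDARG00000031483), for a collagen of cartilage and the notochord sheath, had 138, 107 and 104 CPM in DMSO and 22.8 to 81.6 CPM (median 47.5) after exposure. Of the fibrillar collagens, col1a2 and col1a1b had log2 fold changes of −0.56 and −0.55. Leaving out DMSO library 1, 2 or 4 reduced the 27 to 12, 16 or 13, and they were 12 without the EGCG group, and 3 with the exposed libraries as 1 group. Of 23 tested glucuronosyltransferase genes, whose enzymes couple steroids and other compounds to glucuronic acid, 8 were lower and none higher, with 3 lower when the exposed libraries were 1 group. Ribosomal protein genes moved slightly the other way, with 15 of 38 rps genes higher. They were reduced to 3, 2 or 1 by leaving out DMSO library 1, 2 or 4, and numbered 7 with the clutch block, 0 without the calindol group and 0 with the exposed libraries as 1 group. They were 26 with DESeq2's test, 27 without the testosterone group and 28 without the EGCG group.

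Other gene lists moved in part. Of 24 circadian genes 7 were higher and 2 lower, 3 of the higher ones common (bhlhe41, cry2 and nfil3-5). Of these, nfil3-5 lost its call whichever DMSO library was left out and in 7 of 20 alternatives in all, and cry2 lost it with the exposed libraries as 1 group (adjusted p = 0.152). With 1 group, 1 circadian gene was higher and none lower, without the calindol group 11 were higher, and the 2 were 1 without DMSO library 1, 2 or 4 and 1 with the clutch block. Of 15 hypoxia genes 4 were higher and 2 lower, and the 4 were 2, 2 and 1 without DMSO libraries 1, 2 and 4, 1 without the calindol group and 0 with the exposed libraries as 1 group. The binding protein gene igfbp1a (ENSDARG00000099351) had 17.8, 20.5 and 21.6 CPM in DMSO and 25.2 ± 1.91, 88.7 ± 12.9 and 47.0 ± 11.4 CPM with testosterone, calindol and EGCG (SD, n = 3). Of 18 Nrf2 genes 5 were higher and none lower, and the 5 were 1, 2 and 2 without DMSO libraries 1, 2 and 4 and 0 with the exposed libraries as 1 group. Without the calindol group 1 Nrf2 gene was higher and 4 were lower. Of 16 apolipoprotein genes 7 were lower and 1 higher, with 1 in each direction common, and the 7 were 3 without DMSO library 1 or 2 or without the EGCG group, and 1 with the exposed libraries as 1 group. The embryonic globin gene hbbe1.1 (ENSDARG00000113599), near copies of which could share its reads, had 446, 295 and 254 CPM in DMSO and 513 to 1061 CPM (median 889) after exposure. Of 5 tested hatching gland genes 2 were higher and 1 lower. The lower one, agr2, was the only one in the common response. Its log2 fold change was −0.53 to −0.42 over the 20 alternatives, all of which kept its call. The higher ones, the hatching enzyme genes he1.1 and he1.2, passed the test but overlapped DMSO. The gene he1.1 had 29.1 ± 8.95 CPM with testosterone, 57.2 ± 15.1 with EGCG and 3.56 ± 0.918 with calindol against 2.86 to 7.002 in DMSO.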
